A study of Homo sapiens with 6 samples.

Results

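The interferon-stimulated and antigen presentation genes described here are 39 genes chosen by symbol, among the 35268 named genes of an mRNA-seq table from Rh30 cells. Rh30 is an established line of fusion-positive rhabdomyosarcoma (FP-RMS), a childhood tumor with skeletal muscle features that carries the PAX3-FOXO1 fusion. Cells were treated for 24 hours with 1 µM YK-4-279, a small molecule that blocks protein interactions of ETS transcription factors, or with its vehicle, DMSO. There were 3 libraries in each group. The comparison asks which transcripts of the interferon and antigen presentation pathways changed with the drug. One cell line, one dose and one time were measured, and the labels do not say whether replicates were separate cultures, so p-values measure the spread between these samples.

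Interferons are secreted proteins that signal through cell surface receptors and JAK kinases. Type I interferon leads to a complex that holds STAT2 and IRF9 and binds the interferon-stimulated response element (ISRE), and interferon gamma acts through the gamma-activated site (GAS). The genes switched on include sensors of viral RNA, antiviral effectors, the ubiquitin-like protein ISG15 and its enzymes, and the machinery that loads peptides onto class I molecules for display to T cells.

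The promoter letters of the members are shown first, because most members with a promoter window, though not all, held those of the ISRE. RefSeq promoter windows on GRCh38.p14, from 250 bases before to 50 bases after a gene's start, were found for 32 of the 39 members. The ISRE was searched on both strands as GAAA, any 2 bases and GAAA again, which on the other strand reads TTTC, any 2 bases and TTTC. At least 1 window of 23 of the 32 members held it, or 71.9%, against 4.38% of the 27305 genes with a window. The GAS, searched as TTCNNNGAA, which reads the same on both strands, stood in 11 of the 32, against 9.38% of all genes. It overlapped the ISRE letters in several windows, including those of BST2 and IFI27. A match of letters is a description of the window, not a site of binding. The members were chosen as genes of these pathways, so the shares are not a result of these libraries. IRF7, USP18, IFIT2, IFITM2, MX2, OAS2 and OASL had no window in the table. The stretches below are 30 bases each, with the ISRE letters in capitals, read along the strand of the gene. They come from 4 members whose groups of libraries did not overlap, 3 other members that were measured well, and 3 members with almost no reads, so that the letters can be set beside the levels.
IFI27: atgtctgcagTTTCGGTTTCctggaaaatg
BST2: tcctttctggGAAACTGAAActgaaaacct
PARP9: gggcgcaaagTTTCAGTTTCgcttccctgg
HERC5: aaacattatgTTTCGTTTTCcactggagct
IFITM3: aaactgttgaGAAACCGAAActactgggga
B2M: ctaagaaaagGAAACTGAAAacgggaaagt
ISG15: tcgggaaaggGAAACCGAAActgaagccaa
MX1: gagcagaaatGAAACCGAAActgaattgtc
RSAD2: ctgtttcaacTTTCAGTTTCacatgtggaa
IFIH1: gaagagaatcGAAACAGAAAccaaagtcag

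These stretches lie at chr14:94110618-94110647 for IFI27, chr4:88457035-88457064 for HERC5, chr15:44711369-44711398 for B2M, chr1:1013380-1013409 for ISG15, chr21:41420559-41420588 for MX1 and chr2:6877622-6877651 for RSAD2, all on the plus strand. On the minus strand, they lie at chr19:17405741-17405770 for BST2, chr3:122564322-122564351 for PARP9, chr11:320876-320905 for IFITM3 and chr2:162318686-162318715 for IFIH1. Counted from the RefSeq start, the first capital letter lay between positions -145 and -21 in all of these genes but MX1 and IFI27. In MX1 it lay at position 11 from one of its starts, and in IFI27, which had 2 starts in the table, at position -108 or -187. IFITM3, ISG15 and MX1 carried the same 10 capital letters, GAAACCGAAA, beside mean levels of 1775, 71.0 and 1.32 normalized counts. The same letters thus stood beside levels that lay far apart.

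A normalized count is a read number scaled by 1 factor for the whole library. Of the 39 members, 25 reached a mean of 10 across the 6 libraries and were tested, 11 reached 100, and 2 reached 1000. Only reads of polyadenylated RNA were sequenced, at 16724650 to 24677433 reads on named genes per library. Of the other 14 members, MX2, OAS1, OAS2 and RSAD2 had no read in any library, which by counting error alone allows up to 3 reads per library. IFITM1, IFIT2 and ISG20 lay just inside the minimum, at means of 10.1, 10.2 and 10.5, and IFI44L and DDX58 lay just outside it, at 8.51 and 6.48.

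**Figure D1:**
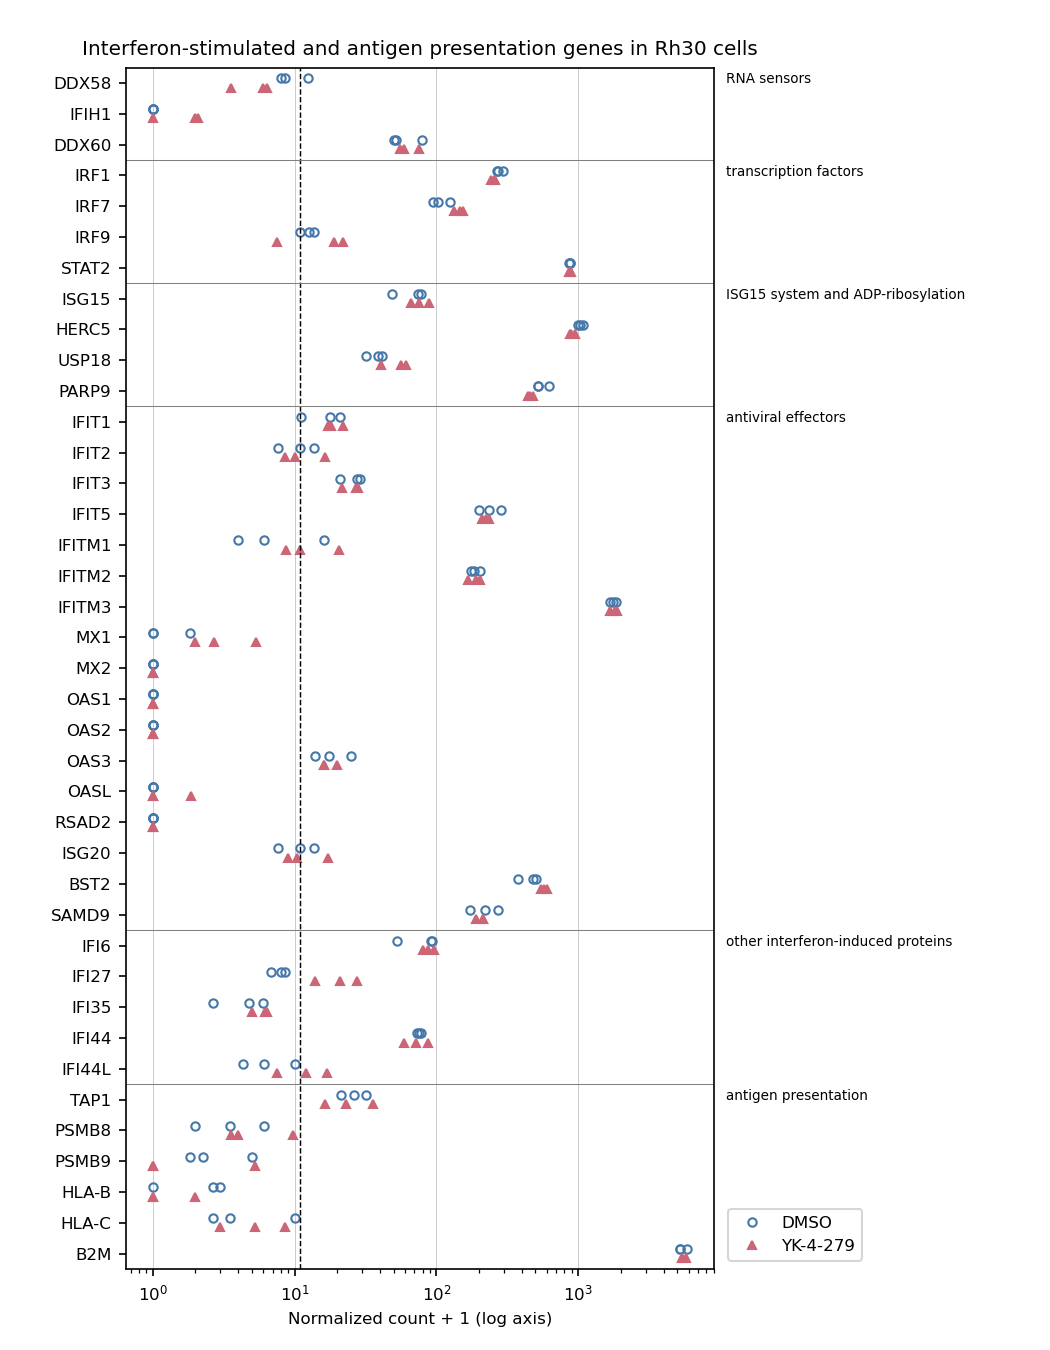
Normalized count plus 1 on a log axis for each of the 39 members in the 3 DMSO libraries (circles) and the 3 YK-4-279 libraries (triangles), grouped by role, with a dashed line at the minimum mean of 10. B2M and IFITM3 stand at the right, while MX2, OAS1, OAS2 and RSAD2 stand at 0 reads in every library.

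None of the 25 members was called by limma at an adjusted p-value under 0.05, while 475 of 13930 genes were, a background of 3.41% (1.26% higher and 2.15% lower). At an unadjusted p-value under 0.05 there were 6 of 25 members, against a background of 18.7%. Of these, 4 were higher with YK-4-279 (IFI27, BST2, IRF7 and USP18), against 7.69% of all genes, and 2 were lower (PARP9 and HERC5), against 11.0%. The libraries of one group lay wholly above or below those of the other for 6 of 25 members, 3 in each direction, against a background of 26.0% (10.9% higher and 15.1% lower). The median log2 fold change of the members tested was 0.02, against -0.01 over all genes tested, and the median of its size without sign was 0.14 against 0.11. There were 15 members with an estimate above 0 and 10 below. The 95% confidence interval of limma lay within 1 log2 unit of no change for 21 of the 25, and within 0.5 for 10.

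**Figure D2:**
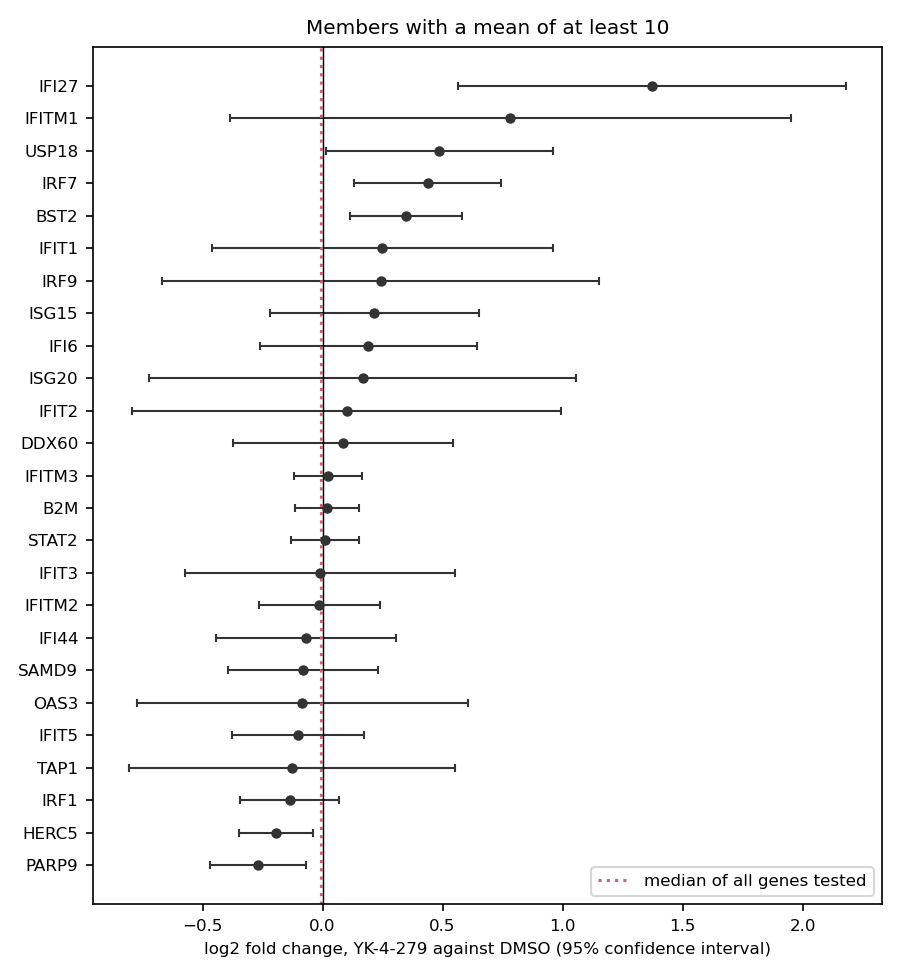
The log2 fold change of YK-4-279 against DMSO for the 25 members tested, on log2(normalized count + 1), with its 95% confidence interval from limma; the dotted line is the median of all genes tested. The interval of IFI27 runs from 0.56 to 2.18, and those of STAT2, B2M and IFITM3 are narrow and cross 0.

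The summed level of all 39 members was 12150, 11530 and 11220 in DMSO replicates 1 to 3 and 11400, 12050 and 11550 in the YK-4-279 replicates. The groups overlapped. B2M made up almost as much of this sum as the other 38 members together, which summed to between 5964 and 6322 in every library. In bulk samples, fewer cells of a type and less RNA per cell cannot be told apart.

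Among the RNA sensors, DDX60, a helicase linked to antiviral signaling, was the sole member tested. It measured 78.2, 51.0 and 49.3 normalized counts in DMSO and 54.0, 75.0 and 58.0 in YK-4-279, so the groups overlapped (log2 fold change 0.08, standard error 0.21, limma adjusted p = 0.870). DDX58, which encodes the viral RNA sensor RIG-I, was too low to test, at 11.3, 7.0 and 7.51 in DMSO and 2.57, 5.43 and 5.0 in YK-4-279. The 3 drug-treated libraries were the lower ones, on 3 to 9 reads in each of the 6, and 43.2% of the gene's exon bases are shared with another gene on the same strand. IFIH1, which encodes the related sensor MDA5, had 2 reads in the 6 libraries.

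The transcription factors of the pathway were all above the minimum. STAT2, a subunit of the complex that binds the ISRE, was among the steadiest members, at 869, 864 and 874 normalized counts in DMSO and 867, 891 and 868 in YK-4-279. Its log2 fold change was 0.01, with a 95% confidence interval from -0.13 to 0.15 (limma adjusted p = 0.956). IRF9, the DNA-binding partner of STAT2, was low, at 12.6, 9.99 and 11.7 in DMSO and 18.0, 6.52 and 21.0 in YK-4-279. The drug-treated libraries lay on both sides of the DMSO ones (log2 fold change 0.24, standard error 0.42, adjusted p = 0.80). The low level of IRF9 beside that of STAT2 holds per length of exon too, at 2.06 against 93.7 normalized counts per kilobase.

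IRF7 (chr11:612553-615983, minus strand), which drives the later wave of type I interferon genes, measured 93.3, 124 and 101 normalized counts in DMSO and 146, 131 and 153 in YK-4-279. All 3 drug-treated libraries were above all 3 controls. Its log2 fold change was 0.44 (standard error 0.14, 95% confidence interval 0.13 to 0.75), and it did not pass the test (limma adjusted p = 0.112). Leaving out DMSO replicate 2, its highest control, gave 0.56 with an adjusted p of 0.0472 (4.92% of all genes passed in that fit), and the adjusted p ranged from 0.0472 to 0.346 over all alternatives. IRF1, a factor induced by interferon gamma, measured 267, 293 and 270 in DMSO and 242, 256 and 255 in YK-4-279. The groups were apart here too, in the opposite direction, by -0.14 on the log2 scale (adjusted p = 0.471), or -0.21 with the trend on GC content and length taken out (adjusted p = 0.143).

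Neither ISG15 nor its enzymes passed the test. HERC5 (chr4:88457119-88506163, plus strand), the ligase that attaches ISG15 to proteins, measured 1084, 1034 and 993 normalized counts in DMSO and 873, 955 and 892 in YK-4-279. Every drug-treated library was below every control, by -0.19 on the log2 scale (standard error 0.07, limma adjusted p = 0.160). With the trend on GC content and transcript length taken out, HERC5 was at -0.12 (unadjusted p = 0.0546). USP18 (chr22:18150118-18177397, plus strand), the protease that removes ISG15 and restrains the interferon receptor, measured 40.4, 38.0 and 30.9 in DMSO and 60.0, 55.4 and 40.0 in YK-4-279. The lowest drug-treated library lay just under the highest control. The log2 fold change of USP18 was 0.49 (standard error 0.22, adjusted p = 0.256).

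PARP9 (chr3:122527924-122564577, minus strand), an ADP-ribosyltransferase that works with the ligase DTX3L in interferon signaling, measured 627, 521 and 519 in DMSO and 440, 456 and 481 in YK-4-279. Again the groups did not overlap, and the log2 fold change was -0.27 (standard error 0.09, limma adjusted p = 0.134). DTX3L, its partner and neighbor on the opposite strand, had a log2 fold change of -0.21 (adjusted p = 0.209). ISG15 itself measured 47.9, 76.9 and 73.5 in DMSO and 87.4, 65.2 and 75.0 in YK-4-279. Its lowest library was DMSO replicate 1, without which the log2 fold change went from 0.22 to 0.00, and neither passed the test (adjusted p = 0.604 with all libraries).

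The antiviral effectors held both the extremes of level among the members other than B2M. IFITM3, a membrane protein that blocks virus entry, measured 1754, 1844 and 1687 normalized counts in DMSO and 1686, 1872 and 1810 in YK-4-279. The groups lay on top of each other, with a log2 fold change of 0.02 and a 95% confidence interval from -0.12 to 0.16 (limma adjusted p = 0.891). IFITM1, a close relative, was near the minimum, at 5.04, 3.0 and 15.0 in DMSO and 7.71, 19.6 and 10.0 in YK-4-279. Its mean was 7.69 in DMSO and 12.4 in YK-4-279, so it reached the minimum only through the drug-treated libraries. Its log2 fold change of 0.78 had a wide interval, from -0.38 to 1.95 (adjusted p = 0.466), and was 0.35 without DMSO replicate 2. IFITM1, IFITM2 and IFITM3 are similar in sequence, so the split of reads between them is uncertain, and IFITM1, IRF9 and IFI6 share 21.1%, 23.9% and 23.1% of their exon bases with another annotated gene on the same strand.

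BST2 (chr19:17402939-17405630, minus strand), which encodes tetherin, a protein that holds budding virus at the cell surface, was the third member by level per kilobase of exon, after B2M and IFITM3. It measured 373, 506 and 483 normalized counts in DMSO and 546, 603 and 570 in YK-4-279. All drug-treated libraries were above all controls, and DMSO replicate 1 was the lowest by a wide margin. The log2 fold change was 0.35 (standard error 0.11, limma adjusted p = 0.0981). It was 0.21 in the fit that left out DMSO replicate 1, with an adjusted p of 0.0438, where 13.1% of all genes passed. With the trend on GC content and transcript length taken out, where 12.0% passed, BST2 was at 0.29 (adjusted p = 0.0190). Over all alternatives the adjusted p of BST2 ranged from 0.0190 to 0.321.

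The other effectors tested had small estimates. IFIT1, IFIT2, IFIT3 and IFIT5, antiviral genes of 1 family, had log2 fold changes of 0.25, 0.10, -0.01 and -0.10, with limma adjusted p-values from 0.707 to 0.990. IFIT5 was the abundant one, at a level of 52.6 normalized counts per kilobase of exon against 2.36 to 4.88 for the other IFIT genes. OAS3, one of the synthetases that activate RNase L, measured 17.1 on average, whereas OAS1 and OAS2 had no read and OASL had a single one. MX1, a dynamin-like GTPase and a common readout of type I interferon, measured 0, 0 and 0.835 in DMSO and 1.71, 4.35 and 1.00 in YK-4-279, which is too few reads to test.

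Of the remaining interferon-induced proteins, IFI27 (chr14:94104836-94116695, plus strand) had the largest estimate among the members tested. It was counted on 6, 7 and 7 reads in DMSO and 31, 12 and 20 reads in YK-4-279, or 7.57, 7.0 and 5.85 against 26.6, 13.0 and 20.0 normalized counts. The lowest drug-treated library was above the highest control. The log2 fold change was 1.37 (standard error 0.38, 95% confidence interval 0.56 to 2.18), and it did not pass the test in limma (adjusted p = 0.0644). It passed in edgeR on the recovered reads, at 1.60 with an adjusted p of 0.0433, a call made for 3.34% of all genes there. No member passed in DESeq2, in which 4.52% of genes did, and DESeq2 gave IFI27 no adjusted p. Over all alternatives the adjusted p of IFI27 ranged from 0.0140 to 0.336.

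IFI6, a mitochondrial protein that restrains cell death, was the most abundant of this group, at 51.7, 90.9 and 91.8 in DMSO and 86.5, 94.5 and 79.0 in YK-4-279. DMSO replicate 1 was the low one again. The log2 fold change of IFI6 was 0.19 with all libraries (limma adjusted p = 0.664) and -0.08 without that library, which stood somewhat apart from the others across genes, with a mean correlation of 0.989 against at least 0.992. IFI44 overlapped between the groups (-0.07, adjusted p = 0.866), and IFI35 and IFI44L were below the minimum.

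**Figure D3:**
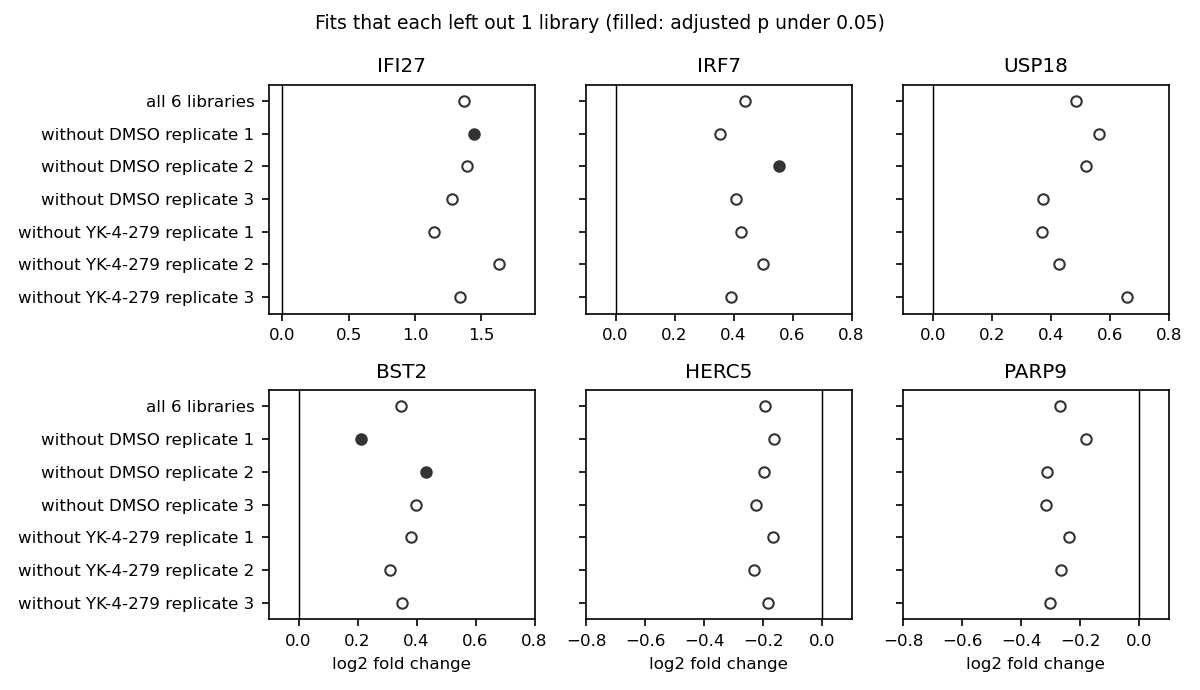
The log2 fold change of the 6 members with an unadjusted limma p-value under 0.05, in the fit of all 6 libraries and in the 6 fits that each left out 1 library; filled points had an adjusted p-value under 0.05, and the axis of IFI27 spans a wider range. Every estimate kept its direction, while a filled point appears for IFI27, IRF7 and BST2 only when DMSO replicate 1 or 2 was left out.

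In class I antigen presentation, a light chain at a high level stood beside heavy chains with almost no reads. B2M (chr15:44711358-44718851, plus strand), the light chain of class I molecules, measured 5877, 5251 and 5228 normalized counts in DMSO and 5437, 5726 and 5395 in YK-4-279. The groups overlapped, and the log2 fold change of 0.02 had a 95% confidence interval from -0.11 to 0.15 (limma adjusted p = 0.901). HLA-B, a classical heavy chain, measured 0, 2.0 and 1.67 in DMSO and 0, 0 and 1.00 in YK-4-279. HLA-C, another, measured 2.52, 8.99 and 1.67 in DMSO and 4.28, 7.61 and 2.0 in YK-4-279. HLA-E, a non-classical heavy chain recognized by natural killer cells, was the exception at 647 to 917 in the 6 libraries. Per kilobase of exon, the mean level was 1758 for B2M, 290.2 for HLA-E, 1.80 for HLA-C and 0.168 for HLA-B.

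The heavy chains differ between people and resemble one another in sequence, and how reads with several alignments were counted was not given in the sources used here, so their levels are uncertain. HLA-B also shares 32.7% of its exon bases with other genes on the same strand, though HLA-C shares none. The surrounding region was not empty of reads. From HLA-F to HLA-DPB1 (chr6:29722775-33089696) the table held 128 protein-coding genes, of which 69 had a mean of at least 10 and 22 of at least 1000.

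The genes of peptide supply also stood at unequal levels. TAP1, which pumps peptides into the endoplasmic reticulum, measured 20.2, 31.0 and 25.0 normalized counts in DMSO and 15.4, 34.8 and 22.0 in YK-4-279, with overlapping groups (log2 fold change -0.13, limma adjusted p = 0.866). Per kilobase of exon, TAP1 averaged 5.22 normalized counts, its partner TAP2 43.3, and TAPBP, the chaperone that bridges the pump to class I molecules, 91.4. The immunoproteasome subunits PSMB8 and PSMB9 were below the minimum. Their level per kilobase was 1.09 and 0.518, and that of PSMB10 was 10.1. The constitutive subunits that they replace, PSMB5, PSMB6 and PSMB7, averaged 1844, 870.3 and 2083 on the same scale. PSMB8, PSMB9 and TAP1 lie side by side and overlap genes on the opposite strand, and PSMB10 shares 39.4% of its exon bases with a gene on its own strand.

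**Figure D4:**
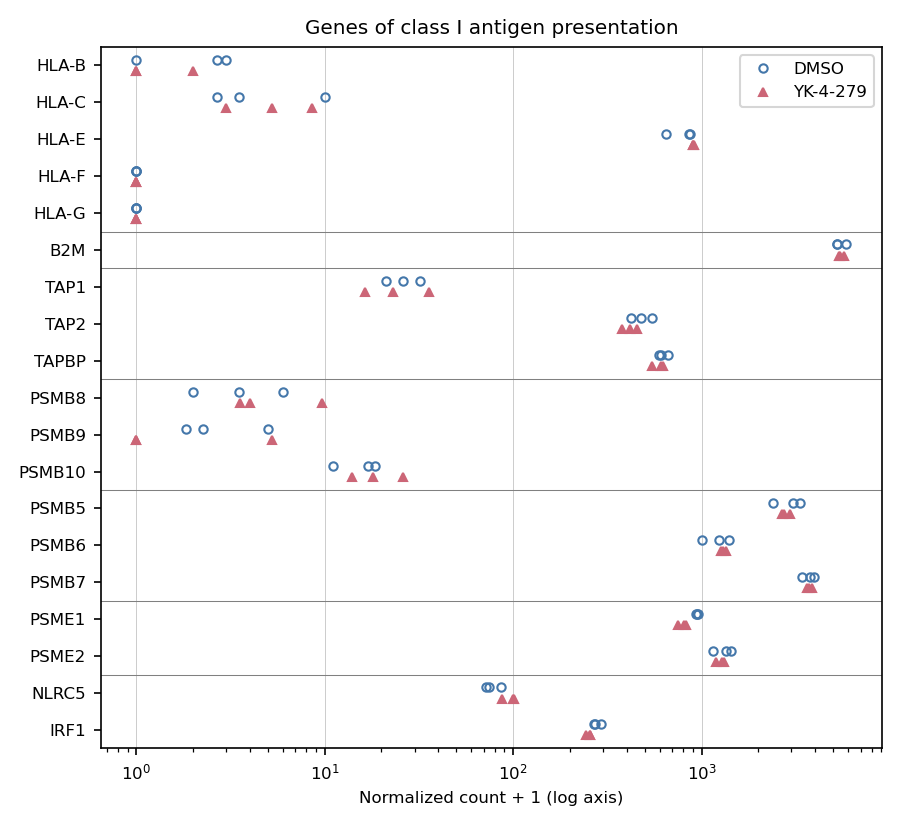
Normalized count plus 1 on a log axis for genes of class I antigen presentation in the DMSO (circles) and YK-4-279 (triangles) libraries: heavy chains, B2M, the peptide transporter, immunoproteasome and constitutive proteasome subunits, activator subunits and 2 transcription factors. HLA-B, HLA-C, HLA-F and HLA-G and the immunoproteasome subunits PSMB8 and PSMB9 lie near 0 in both groups, and B2M lies at 5228 or above.

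The rest of the pathway was read from lists of other genes. Of 9 interferon ligand genes, none reached the minimum and 8 had no read, and IFNK had 1 read in 1 library. Of 14 genes of the receptors and JAK-STAT signaling, 13 were tested and none passed in limma, and 3 of the 13 had an unadjusted p-value under 0.05, against 18.7% of all genes. IFNAR1 and IFNAR2, the chains of the type I receptor, averaged 1876 and 22.6 normalized counts, with log2 fold changes of -0.06 and -0.09 (adjusted p = 0.715 and 0.888). IFNAR2 shares 14.7% of its exon bases with a gene on the same strand and 13.0% on the opposite strand, so its level is uncertain.

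Of 19 genes of nucleic acid sensing, 13 were tested and 1 passed. EIF2AK2 (chr2:37099210-37157522, minus strand), which encodes PKR, the kinase that halts translation on double-stranded RNA, measured 2606, 2339 and 2420 normalized counts in DMSO and 2029, 2009 and 1984 in YK-4-279. It fell by 0.29 on the log2 scale (standard error 0.06, limma adjusted p = 0.0232), among 2.15% of all genes that fell. The call was not held in every fit: with the replicate block the same change had an adjusted p of 0.0687, and leaving out DMSO replicate 3 or YK-4-279 replicate 1, 2 or 3 gave 0.0708, 0.140, 0.135 and 0.142. Quantile scaling gave 0.0553 and a fit without the trend 0.130, in a range from 7.82e-05 to 0.142 over all alternatives. CGAS, the sensor of cytosolic DNA, was lower in every drug-treated library, at 335 to 393 against 420.0 to 465, with a log2 fold change of -0.27 that did not pass (adjusted p = 0.127). With the trend on GC content and length taken out it passed, at -0.25 with an adjusted p of 0.0469, the lowest of a range up to 0.402 over all alternatives. STING1, its adaptor, had a log2 fold change of 0.03 (adjusted p = 0.931), and ADAR, an RNA-editing enzyme with an interferon-induced form, had -0.06 (adjusted p = 0.596, and -0.0139 without DMSO replicate 1).

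Of 34 other interferon-stimulated genes, 19 were tested and none passed in limma, with 4 of the 19 at an unadjusted p-value under 0.05, against 18.7% of all genes, and a median log2 fold change of 0.00. LGALS3BP, a secreted glycoprotein and the most abundant of them, averaged 3478 normalized counts with a log2 fold change of 0.01 (adjusted p = 0.949). Of 16 other genes of class I presentation, 13 were tested and none passed, with 4 of the 13 at an unadjusted p-value under 0.05, against the same 18.7%. CALR, a chaperone of the loading complex and the most abundant, had a log2 fold change of -0.11 (adjusted p = 0.384). It passed without DMSO replicate 1, at -0.16 with an adjusted p of 0.00538, and was -0.0644 without DMSO replicate 2, in a range of adjusted p from 0.00538 to 0.780 over all alternatives. NLRC5, the transactivator of class I genes, averaged 85.9 with a log2 fold change of 0.31 (adjusted p = 0.290), and HLA-E had 0.20 (adjusted p = 0.30). HLA-E was lowest in DMSO replicate 1, without which its log2 fold change was 0.0637. Of 13 class II genes, 4 were tested and none passed, of which RFX5, a factor that binds class I and class II promoters, was the highest (0.15, adjusted p = 0.404, and 0.0791 without YK-4-279 replicate 2).

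The cells were checked against markers. All 5 markers of the skeletal muscle lineage were above the minimum, and MYOD1 averaged 36990 normalized counts. MYOG, DES and MYMK, 3 of the 5, were higher in every drug-treated library than in any control, against 10.9% of all genes. Their log2 fold changes of 0.23, 0.14 and 0.76 did not pass (limma adjusted p = 0.224, 0.255 and 0.0573). Without DMSO replicate 1 they were 0.0819, 0.0817 and 0.70, and the last then passed (adjusted p = 0.0374, in a range up to 0.233 over all alternatives). MYOG passed without DMSO replicate 2, at 0.32 with an adjusted p of 0.0498, in a range up to 0.481. These 3 genes were named after their values were seen. The other 2, MYOD1 and CHRND, had log2 fold changes of -0.0082 and -0.0093 (adjusted p = 0.963 and 0.960). Of 10 immune cell markers, 1 was above the minimum and 5 had no read. CD68, among those without a read, shares 81.6% of its exon bases with a gene on the same strand, so its level is uncertain. The immune markers summed to 8.83 to 16.0 in DMSO and 18.5 to 28.3 in YK-4-279. PTPRC, which marks all leukocytes, had 1 read in the 6 libraries, and CD14 and NKG7 made up most of the sum. CD14, a co-receptor for bacterial lipopolysaccharide that was chosen after its values were seen, measured 3.78, 12.0 and 8.35 in DMSO and 23.1, 17.4 and 15.0 in YK-4-279 (log2 fold change 1.20, limma adjusted p = 0.140, and 0.80 on the log2 scale without DMSO replicate 1). The part of such cells in the values of IFI27, IRF7 and BST2 was not tested. The 5 endothelial markers summed to 236 to 318 in DMSO and 221 to 252 in YK-4-279, most of it TEK, at a mean of 204. TEK was lower in every drug-treated library than in any control (log2 fold change -0.38, limma adjusted p = 0.128, or 0.0398 with the GC content and length trend taken out, in a range up to 0.418 over all alternatives; -0.26 without DMSO replicate 1), and KDR, at a mean of 10.6, was higher in each (0.71, adjusted p = 0.332), both named after their values were seen.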

How the data were processed

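mRNA of Rh30 cells was sequenced as paired reads from directional libraries. Per the labels and the methods, the authors trimmed reads with BBDuk, used STAR 2.7.9a for alignment to hg38 and for counting by gene, and scaled counts with DESeq2 1.44.0. The annotation and the strand setting of the counting were not given in the sources used here. The deposited values are a normalized signal, reads times 1 factor per library, and all values of each library (100%) were whole reads within 0.01. The table held 35269 rows, and 1 row without a name, with at most 6 reads per library, was left out. Differences were tested two-sided with limma 3.58.1 in R 4.3.3 (lmFit, then eBayes with a mean-variance trend), for 13930 genes whose mean reached 10, on log2(normalized count + 1), with Benjamini-Hochberg adjustment over all of them. This scale understates changes of low genes. A gene under a mean of 10 in DMSO could reach the minimum through the drug-treated libraries, as IFI27, IFITM1, CD14, CD274 and KDR did. Such genes entered the tests with a bias toward a rise. The members and gene lists were chosen with earlier results of these data known. Full values were given for members that passed the test and, per role, for the member with the highest mean and those with the 2 largest changes; of other lists, for genes that passed, the highest mean and listed genes (HLA-E, TAP2, TAPBP, PSMB10, NLRC5, IFNAR1, IFNAR2, STING1 and CGAS). Some genes of the lists are not reported here by name. Members with an unadjusted p-value under 0.05, and other genes named, were added after their values were seen. Alternatives were pseudocounts of 0.5 and 10, no minimum mean and one of 100, TMM and quantile scaling, eBayes without trend, edgeR 4.0.16 and DESeq2 1.42.0 on recovered reads, a replicate block and leaving out each library. A correction of each library for GC content and transcript length by splines, for the 98.8% of tested genes with both, was added after seeing the data. Same-numbered libraries had correlated deviations of -0.098, -0.027 and -0.027, so the numbers were not used to pair them. Code was tested on simulated data. Gene positions are from GENCODE on hg38, 1-based.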

Additional observations from a re-analysis of the deposited data

How the results depend on the processing

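The number of genes that passed over the whole table, 475, was 277 after quantile scaling, 33 without the trend, 180 with the replicate block, 1645 with the trend on GC content and length taken out, and 19 to 1827 when 1 library was left out. The number of members that passed, 0 of 25, was 1 in edgeR (IFI27), where 3.34% of all genes passed. It was 3 of 25 with the GC trend taken out, where 12.0% of all genes passed (IFI27 at 1.30 and BST2 at 0.29 higher, PARP9 at -0.23 lower). With 1 library left out it was 0 to 2. The 2 were IFI27 and BST2 of 24 without DMSO replicate 1 (13.1% of all genes). Without DMSO replicate 2 they were BST2 and IRF7 of 25 (4.92% of all genes). The replicate block gave 0 members and 0 genes of the other lists. The replicate numbers did not pair the libraries. The median log2 fold change of the members, 0.02, was 0.10 without a minimum mean, -0.0266 after quantile scaling, 0.0932 with the GC trend taken out, and -0.0205 to 0.0879 with 1 library left out. The 1 gene of the other lists that passed became 0 after quantile scaling or without the trend. It became 6 with the GC trend taken out, where 12.0% of all genes passed. With 1 library left out it became 0 to 6, in fits where up to 13.1% of all genes passed. The cause of these differences was not tested.

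For the single genes named, 253 estimates with 1 library left out and 510 under other settings kept their direction and their side of the threshold. Another 10 and 11 newly passed it, and 4 and 3 no longer did. The signs that changed were these. After quantile scaling DDX60 was -0.0266, IFIT2 -0.12, ISG20 -0.0887 and ADAR 0.0072. With TMM or in edgeR IFIT3 was 0.0048 or 0.0088 and IFITM2 0.0022 or 0.0115. With the GC trend taken out STAT2 was -0.0189, IFIT3 0.0207, IFITM3 -0.0725, IFI44 0.0348, IFNAR1 0.0027, STING1 -0.0358 and LGALS3BP -0.0591. With 1 library left out, DDX60 ranged from -0.0538 to 0.30, IRF9 from -0.051 to 0.72, STAT2 from -0.0021 to 0.0174, IFIT1 from -0.0172 to 0.44, IFIT2 from -0.12 to 0.29, IFIT3 from -0.15 to 0.11, IFIT5 from -0.22 to 0.0308, IFITM2 from -0.0731 to 0.0639, IFITM3 from -0.0108 to 0.0646, OAS3 from -0.28 to 0.15, ISG20 from -0.0574 to 0.36, SAMD9 from -0.24 to 0.0806, IFI6 from -0.0787 to 0.33, IFI44 from -0.21 to 0.0674, TAP1 from -0.42 to 0.14, B2M from -0.0099 to 0.0744, IFNAR1 from -0.10 to 0.0085, IFNAR2 from -0.16 to 0.0214, LGALS3BP from -0.0063 to 0.0378, and STING1 from -0.0605 to 0.0795. Without a minimum mean, 35 members were tested and 0 passed. The 4 members with no read in any library could not be tested.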

Other observations

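HERC6, CD274, SOCS3 and PSME1, outside the members, had groups that did not overlap, as did 26.0% of all genes. Of 13 tested genes of the receptors and JAK-STAT signaling, this held for 1 higher and 1 lower. The counts were 3 and 3 of 19 other interferon-stimulated genes, and 2 and 2 of 13 other class I genes. Unlike EIF2AK2, the genes named here did not pass in the limma fit of all 6 libraries as deposited. SOCS3 and PSME1 passed with the trend on GC content and length taken out, at 0.28 and -0.27 (adjusted p = 0.00502 and 0.00469). HERC6, CD274, SOCS3 and PSME1 were chosen after their values were seen. HERC6, a ligase related to HERC5, measured 16.4, 29.0 and 31.7 normalized counts in DMSO and 44.6, 47.8 and 41.0 in YK-4-279, a log2 fold change of 0.82 (limma adjusted p = 0.110), or 0.53 without DMSO replicate 1, its lowest library. HERC6 lies next to HERC5 on chromosome 4, and HERC5 had the opposite sign. CD274, which encodes the T cell inhibitory ligand PD-L1, was low, at 8.83, 13.0 and 6.68 in DMSO and 16.3, 20.6 and 19.0 in YK-4-279, a log2 fold change of 0.94 (adjusted p = 0.168).

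SOCS3, an inhibitor of JAK kinases, measured 615, 859 and 818 in DMSO and 933, 976 and 956 in YK-4-279, a log2 fold change of 0.34 (limma adjusted p = 0.102). Without DMSO replicate 1, the lowest library, it was 0.19 (adjusted p = 0.0249, in a range from 0.00502 to 0.312 over all alternatives). PSME1, a subunit of the interferon-inducible proteasome activator, was lower in every drug-treated library, at 951, 929 and 959 in DMSO and 805, 746 and 828 in YK-4-279. Its log2 fold change was -0.26 (adjusted p = 0.0662 with all libraries, and from 0.00249 to 0.283 over all alternatives).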
